A study of Rattus norvegicus with 30 samples.

Results

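The genes described here are 9 enzymes of cholesterol synthesis (Idi1, Fdft1, Sqle, Cyp51, Tm7sf2, Msmo1, Nsdhl, Hsd17b7 and Sc5d) and Insig1, a sterol-sensing regulator of the same pathway. They were taken by name from the gene table of the array platform, which pairs them with 17 of the 31099 probe sets on the array. All 17 probe sets passed the filter on low signals, and the 10 genes are 10 of 10528 genes tested. Cells build cholesterol from acetyl-CoA through mevalonate, isoprenoids, squalene and lanosterol, and the liver is a major site of this synthesis. The pathway is controlled by the transcription factor SREBP2, which SCAP carries out of the endoplasmic reticulum when sterols are scarce, and which INSIG proteins hold back when sterols are plentiful. SREBP2 raises the RNA of nearly every enzyme of the pathway and of INSIG1 itself, so in liver these genes commonly move as a block.

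RNA was measured in cultured primary rat hepatocytes exposed to dioctyl phthalate, a phthalate diester used as a plasticizer, whose octyl isomer the labels do not name. The 6 groups were 250 µM and 1000 µM dioctyl phthalate and vehicle at 24 h after dosing, and the same 3 at 48 h, with 5 wells and 5 arrays in each group and 30 arrays in all. Every well held frozen, purchased hepatocytes of male Sprague Dawley rats, plated on collagen under a Matrigel overlay and dosed on day 3 of culture. Vehicle wells received 1% DMSO, and the dosing solutions of the treated wells were also made in 1% DMSO, per the labels. The sources used here do not say how many animals or vials lie behind the wells, so errors and p-values describe the spread between wells, which may be technical. Values are array signals on a linear scale, and changes are differences of log2(signal + 1) with their standard errors, from 1 limma model over all tested genes with 5 arrays per group. A gene is called higher or lower where its Benjamini-Hochberg adjusted p over the 10528 genes is under 0.05.

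Of 8 hepatocyte markers 7 had a probe set, and all 7 passed the filter, with summed signals of 288620 to 502032 per array. Correlations between arrays of a group, taken across genes, were 0.968 to 0.986. The 48 h vehicle group stood apart in RNA quality. Its beta-actin 3'/5' log2 ratio, which is higher where RNA or its copies are shortened, was 1.72 ± 0.494 (SD, n = 5), against means of 1.14 to 1.30 in the other 5 groups. Its replicates 1, 2, 3 and 5 had ratios of 2.44, 1.74, 1.70 and 1.66, and replicate 4 had 1.04. Results that use 48 h vehicle are therefore given also with replicate 4 as the sole vehicle array at 48 h. Summed signals of 7 markers of stellate cells and myofibroblasts, of which 4 passed the filter and Vim made up most, were lower in every treated array than in any vehicle array of the same time. At 24 h these sums were 9285 to 14381 in vehicle, 5856 to 6596 at 250 µM and 5827 to 7115 at 1000 µM. At 48 h they were 14475 to 15565 in vehicle, 5782 to 6756 at 250 µM and 6415 to 7473 at 1000 µM. The stellate markers Col1a2, Pdgfrb and Lrat lay under the low-signal limit. Which cells the RNA of these markers came from was not measured. Fewer cells of a type and less RNA per cell cannot be told apart in such cultures, and the part of the stellate markers in the results below was not tested. Of the other markers, 3 of 6 for Kupffer cells and leukocytes, 1 of 4 for endothelium (Kdr) and 1 of 3 for cholangiocytes (Epcam) passed the filter.

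Promoters of 8 of the 10 genes were held in the RefSeq table of build GRCr8. Fdft1 and Sqle were not in it. The sequences below are the 250 bases before the start site of the 3 genes with the most CCAAT boxes, which all rose at 48 h, and of Tm7sf2 and Cyp51, which did not rise at 48 h. Idi1, with 2 copies as in Tm7sf2, and Sc5d and Insig1, with 1 each, rose at 48 h as well. A link between CCAAT copies and the changes was not tested. CCAAT is the letter pattern bound by NF-Y, a factor known to work beside SREBP2 at sterol genes, and capitals mark it on either strand (CCAAT or ATTGG). In the order printed they are the promoters of Msmo1 (chr16:29746863-29747112, plus strand), Nsdhl (chrX:155817110-155817359, plus strand), Hsd17b7 (chr13:84722755-84723004, minus strand), Tm7sf2 (chr1:212789542-212789791, minus strand) and Cyp51 (chr4:30991443-30991692, plus strand).
Msmo1: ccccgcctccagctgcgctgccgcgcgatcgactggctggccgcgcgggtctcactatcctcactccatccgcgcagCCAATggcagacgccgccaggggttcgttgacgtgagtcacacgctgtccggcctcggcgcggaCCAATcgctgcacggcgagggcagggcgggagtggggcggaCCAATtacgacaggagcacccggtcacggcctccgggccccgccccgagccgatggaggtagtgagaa
Nsdhl: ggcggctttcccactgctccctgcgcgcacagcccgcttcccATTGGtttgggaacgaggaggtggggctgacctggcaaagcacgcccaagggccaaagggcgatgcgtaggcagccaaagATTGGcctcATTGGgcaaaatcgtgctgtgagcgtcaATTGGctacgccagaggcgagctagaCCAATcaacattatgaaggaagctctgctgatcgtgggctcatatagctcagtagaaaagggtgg
Hsd17b7: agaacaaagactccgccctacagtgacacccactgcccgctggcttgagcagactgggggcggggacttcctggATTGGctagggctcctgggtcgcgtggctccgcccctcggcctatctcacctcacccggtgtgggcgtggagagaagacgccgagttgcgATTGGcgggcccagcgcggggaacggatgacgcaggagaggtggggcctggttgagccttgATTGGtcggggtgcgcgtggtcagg
Tm7sf2: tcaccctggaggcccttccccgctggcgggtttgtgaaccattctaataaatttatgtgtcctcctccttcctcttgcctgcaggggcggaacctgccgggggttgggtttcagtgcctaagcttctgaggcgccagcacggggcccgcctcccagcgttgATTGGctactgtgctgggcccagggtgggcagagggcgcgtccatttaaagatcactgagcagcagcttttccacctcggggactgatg
Cyp51: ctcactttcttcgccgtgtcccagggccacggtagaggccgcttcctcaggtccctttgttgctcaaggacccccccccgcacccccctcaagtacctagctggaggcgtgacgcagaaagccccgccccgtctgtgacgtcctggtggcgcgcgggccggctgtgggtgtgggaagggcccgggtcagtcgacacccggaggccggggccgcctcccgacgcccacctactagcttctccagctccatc

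Each promoter window searched ran from 250 bases before to 50 bases after the start site, and both strands were read. CCAAT was present in 7 of the 8 windows, against 37.5% of the 33469 promoters in the table. Nsdhl held 5 copies, Msmo1 and Hsd17b7 held 3 each, Idi1 and Tm7sf2 held 2 each, and Sc5d and Insig1 held 1 each. One of the Tm7sf2 copies lies after the start site and outside the stretch printed. Cyp51 held none. The GC box GGGCGG, bound by Sp1, was present in 6 of 8 windows (Cyp51, Tm7sf2, Msmo1, Hsd17b7, Sc5d and Insig1), against 33.1% of all promoters. The core of the sterol regulatory element, written as TCACNCCAC, was in 0 of the 8 windows and in 1.12% of all promoters. A pair of AGGTCA copies with 1 base between them, the pattern of a PPAR response element, was in 0 of 8 and in 0.0538% of all promoters. No match says only that these letters are not in this window.

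After 24 h of dioctyl phthalate the genes moved in both directions. At 250 µM, 3 of the 10 rose (Hsd17b7, Sc5d and Insig1) and 3 fell (Sqle, Cyp51 and Tm7sf2), beside 19.3% of all tested genes called, 8.31% higher and 11% lower. At 1000 µM, 4 rose (these 3 and Nsdhl) and 2 fell (Sqle and Tm7sf2), beside 19.5% of all genes, 8.28% higher and 11.2% lower. The median log2 change of the 10 was 0.05 at 250 µM and 0.14 at 1000 µM, against -0.03 over all tested genes at either dose. Arrays of the 2 groups did not overlap for 3 of the risers and 2 of the fallers at each dose, and at 1000 µM 6.31% of all genes were higher and 7.81% lower without overlap. At 250 µM these shares of all genes were 6.74% and 8%. Both doses share the 5 vehicle arrays of their time.

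After 48 h most of the 10 genes stood above vehicle. At each dose the same 7 rose (Idi1, Fdft1, Msmo1, Nsdhl, Hsd17b7, Sc5d and Insig1), each without overlap between treated and vehicle arrays, 1 fell (Sqle), and Cyp51 and Tm7sf2 were not called. Of all tested genes 41.2% were called at 250 µM (15.2% higher and 26% lower) and 29.7% at 1000 µM (11.5% higher and 18.3% lower). Of all genes, 10.2% were higher and 15.1% lower without overlap at 250 µM, and 7.45% higher and 10.9% lower at 1000 µM. The median change of the 10 genes was 0.42 at 250 µM and 0.39 at 1000 µM, against -0.07 and -0.04 over all genes. With the probe set used for each gene the rises were of modest size, between 1.23-fold (Sc5d at 250 µM) and 1.53-fold (Hsd17b7 at 1000 µM). The other Sc5d probe sets rose more, as given below.

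**Figure D1:**
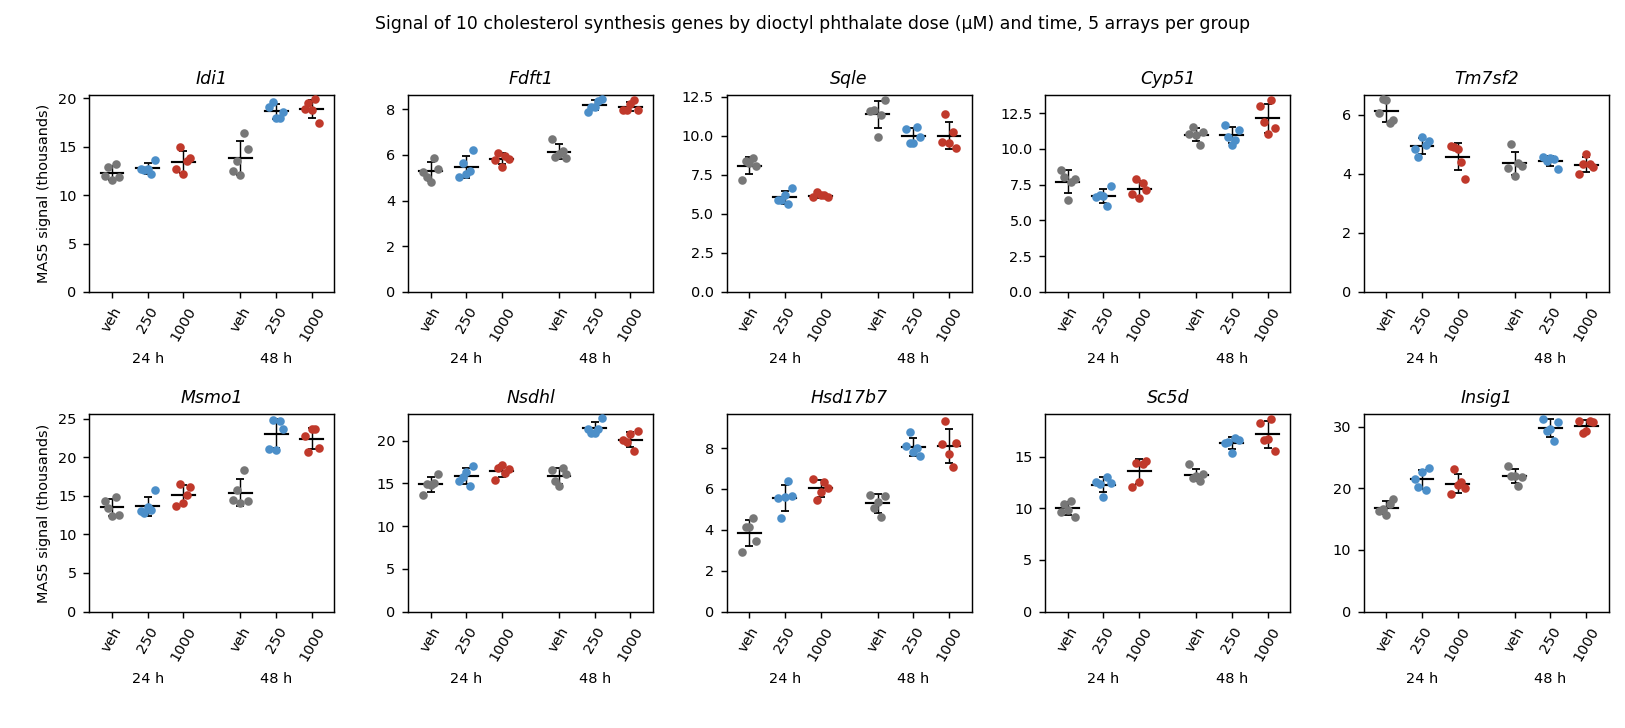
Signal of each of the 10 genes on each of the 30 arrays (points, as MAS5 signal divided by 1000, on linear axes from 0), with the group mean and SD of 5 arrays (bars), by dose in µM at 24 and 48 h. Hsd17b7, Sc5d and Insig1 lie above vehicle at both times, Idi1, Fdft1 and Msmo1 clear the vehicle arrays at 48 h, and Sqle and Tm7sf2 lie below vehicle at 24 h.

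Idi1 (probe set 1368878_at) encodes isopentenyl diphosphate isomerase, which makes the isoprenoid building block dimethylallyl diphosphate. At 48 h its signals were 12526, 13533, 12128, 16389 and 14818 in vehicle, 19110.0, 19659, 17995, 17927 and 18560.0 at 250 µM, and 18937, 19488, 18765, 19965 and 17435 at 1000 µM. All 10 treated arrays lay above all 5 vehicle arrays, of which replicate 4 was the highest. The change was 0.43 ± 0.06, adjusted p = 1.93e-06 (limma) at 250 µM and 0.45 ± 0.06, adjusted p = 1.3e-06 (limma) at 1000 µM. At 24 h its signals were 11538 to 13226 in vehicle, 12144 to 13630.3 at 250 µM and 12141 to 15004 at 1000 µM, ranges that overlapped. No call was made there by limma, with changes of 0.05 ± 0.06 and 0.13 ± 0.06.

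Fdft1 (1367839_at), squalene synthase, joins farnesyl diphosphates into squalene, the first step committed to sterols. Its signals at 48 h were 6676, 5907, 6058, 6192 and 5862 in vehicle, 7875, 8088, 8117, 8359 and 8458 at 250 µM, and 7977, 7969, 8240.1, 8391 and 7977 at 1000 µM. The lowest treated array stood well above the highest vehicle array, so the groups were separate. The change was 0.41 ± 0.06, adjusted p = 3.11e-07 (limma) at 250 µM and 0.40 ± 0.06, adjusted p = 7.81e-07 (limma) at 1000 µM. After 24 h the change was 0.05 ± 0.06, adjusted p = 0.615 at 250 µM and 0.15 ± 0.06, adjusted p = 0.0649 at 1000 µM (limma), with overlapping ranges. Without replicate 3 of the 1000 µM group or replicate 4 of vehicle at 24 h the 1000 µM change was 0.17 or 0.19 and was called (limma adjusted p = 0.0448 or 0.0178).

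Sqle (1387017_at), squalene epoxidase, is a rate-limiting oxygenation step and lies directly after squalene synthase. At 24 h its signals were 7157, 8369, 8272, 8537 and 8028 in vehicle, 5850.5, 5870.5, 6208, 5629 and 6649 at 250 µM, and 6043, 6373, 6209.8, 6169 and 6046 at 1000 µM. Every treated array lay below every vehicle array at either dose. Sqle fell by 0.42 on the log2 scale at 250 µM (-0.42 ± 0.06, limma adjusted p = 2.45e-06) and by 0.39 at 1000 µM (-0.39 ± 0.06, limma adjusted p = 1.01e-05). At 48 h its signals were 11585, 11653, 9907, 11350.0 and 12288 in vehicle, 10417, 9507, 9531, 10535 and 9929 at 250 µM, and 9592, 11373, 9535, 10258 and 9234 at 1000 µM. These ranges overlapped through replicate 3 of vehicle and, at 1000 µM, through replicate 4 as well. Sqle was called lower there, with changes of -0.18 ± 0.06 (limma adjusted p = 0.015) at 250 µM and -0.18 ± 0.06 (limma adjusted p = 0.0205) at 1000 µM. The 48 h call was lost without vehicle replicate 5 at either dose (limma adjusted p = 0.0554 and 0.0707) and, at 1000 µM, without treated replicate 1, 3 or 5 (0.0508, 0.0556 and 0.0672).

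Cyp51 (1367979_s_at), lanosterol 14-alpha-demethylase, carries out the first step on lanosterol. Its 24 h signals were 6429 to 8554 in vehicle, 5983 to 7386 at 250 µM and 6548 to 7873 at 1000 µM, and the ranges overlapped. It fell by 0.20 on the log2 scale at 250 µM (limma adjusted p = 0.0339), while its change at 1000 µM was -0.10 ± 0.07 (limma adjusted p = 0.381). The call at 250 µM was lost without any one of vehicle replicates 1, 2, 4 and 5 or of treated replicates 1, 3 and 4 (limma adjusted p = 0.0541 to 0.122). At 48 h its change was -0.01 ± 0.07, adjusted p = 0.953 (limma) at 250 µM and 0.14 ± 0.07, adjusted p = 0.118 (limma) at 1000 µM. The probe set is of a type that Affymetrix marks as able to read related transcripts (_s_at).

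Tm7sf2 (1389725_at) encodes a sterol C14-reductase, which acts on the product of Cyp51. At 24 h its signals were 6076, 6547, 6487, 5732 and 5829 in vehicle, 4834, 4554, 5245, 4981 and 5096 at 250 µM, and 4926, 4907, 4857, 4396 and 3837 at 1000 µM. No treated array reached the lowest vehicle array. The change was -0.31 ± 0.07, adjusted p = 0.000691 (limma) at 250 µM and -0.42 ± 0.07, adjusted p = 1.07e-05 (limma) at 1000 µM. At 48 h its signals were 4194, 4996, 3936, 4359 and 4273 in vehicle, 4558, 4439, 4546, 4488 and 4147 at 250 µM, and 3988, 4323, 4667, 4345 and 4248 at 1000 µM. The 3 groups overlapped at this time, with changes of 0.03 ± 0.07, adjusted p = 0.748 (limma) at 250 µM and -0.01 ± 0.07, adjusted p = 0.934 (limma) at 1000 µM. With array medians centred, the 24 h change at 250 µM was -0.29 and no longer called (limma adjusted p = 0.0544).

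Msmo1 (1368275_at), methylsterol monooxygenase, starts the removal of the methyl groups at C4, and its promoter, printed above, held 3 CCAAT boxes. At 48 h its signals were 14453, 15779, 14120.3, 18292 and 14348 in vehicle, 21115, 24795, 21004, 24721 and 23730.4 at 250 µM, and 22723, 20741, 23655, 23735 and 21173 at 1000 µM. All treated arrays lay above all vehicle arrays, and vehicle replicate 4 was again the highest of its group. Msmo1 rose 1.5-fold at 250 µM (0.59 ± 0.07, limma adjusted p = 9.52e-08) and 1.46-fold at 1000 µM (0.55 ± 0.07, limma adjusted p = 5.51e-07). The 24 h signals were 12356 to 14890.2 in vehicle, 12726 to 15771 at 250 µM and 13630.1 to 16544 at 1000 µM. The ranges overlapped and the changes were 0.01 ± 0.07, adjusted p = 0.927 and 0.16 ± 0.07, adjusted p = 0.132 (limma).

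Nsdhl (1392988_at), the C4 sterol decarboxylase, and Hsd17b7 (1389430_at), the 3-ketosteroid reductase, complete the C4 demethylation that Msmo1 starts. Nsdhl signals at 48 h were 16596, 15248, 14645, 16759.9 and 16065 in vehicle, 21315, 20858, 20929.8, 21379.7 and 22624 at 250 µM, and 20026, 19838, 20803, 18755 and 21063 at 1000 µM. The treated arrays stood above the vehicle arrays without overlap. Its change was 0.43 ± 0.05, adjusted p = 1.7e-08 (limma) at 250 µM and 0.34 ± 0.05, adjusted p = 2.06e-06 (limma) at 1000 µM. At 24 h the change was 0.09 ± 0.05, adjusted p = 0.265 (limma) at 250 µM and 0.14 ± 0.05, adjusted p = 0.0398 (limma) at 1000 µM. The 24 h call at 1000 µM was lost without any one of vehicle replicates 1, 2, 3 and 4 or of treated replicates 2, 3, 4 and 5 (limma adjusted p = 0.0557 to 0.13).

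At 48 h Sc5d probe sets rose most of the 17, by 0.65 at 250 µM (1387926_at) and 0.62 at 1000 µM (1389111_at). Among the probe sets used, 1 per gene, Hsd17b7 had the largest rise of the 10 genes at each dose and time. Its signals at 24 h were 2922, 4132, 4159.5, 4558 and 3432 in vehicle, 5558, 4600.2, 5589, 6408 and 5654 at 250 µM, and 6492, 5459.7, 5837, 6335 and 6053 at 1000 µM. The lowest treated array lay just above the highest vehicle array. The change was 0.54 ± 0.09, adjusted p = 3.37e-05 (limma, 1.46-fold) at 250 µM and 0.67 ± 0.09, adjusted p = 1.35e-06 (limma, 1.59-fold) at 1000 µM. At 48 h its signals were 5724, 5045, 5364, 4639 and 5663 in vehicle, 8096, 8793, 7785, 8005 and 7587 at 250 µM, and 8189, 9334, 7694, 7056 and 8248 at 1000 µM. The treated arrays were again all above the vehicle arrays, with changes of 0.61 ± 0.09, adjusted p = 2.99e-06 (limma) at 250 µM and 0.61 ± 0.09, adjusted p = 3.93e-06 (limma) at 1000 µM.

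Sc5d (1390777_at), the lathosterol desaturase, introduces a ring double bond late in the pathway. Its 24 h signals were 9209 to 10746 in vehicle, 11088 to 13055 at 250 µM and 12088 to 14558 at 1000 µM, and its 48 h signals were 12699 to 14266, 15369.8 to 16875 and 15586 to 18669 in the same groups. Treated and vehicle ranges were separate at both times. The change was 0.30 ± 0.06, adjusted p = 0.000202 at 250 µM and 0.44 ± 0.06, adjusted p = 5.82e-07 at 1000 µM after 24 h (limma), and 0.30 ± 0.06, adjusted p = 0.000105 and 0.37 ± 0.06, adjusted p = 7.76e-06 after 48 h (limma).

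Insig1 (1367894_at), the regulator that holds SCAP in the endoplasmic reticulum, rose at both times. At 24 h its signals were 16280.4, 16637, 15671, 17425 and 18338 in vehicle, 21479, 20145, 22691, 19739 and 23216 at 250 µM, and 19149, 23169, 20521, 20976 and 20040.0 at 1000 µM, and at 48 h 23638, 21959.8, 22055, 20415 and 21806 in vehicle, 31244, 29378, 29679, 27631 and 30837 at 250 µM, and 30955, 28957, 29335, 30866 and 30685 at 1000 µM. No treated array overlapped the vehicle arrays of its time. The change was 0.35 ± 0.05, adjusted p = 7.92e-06 at 250 µM and 0.30 ± 0.05, adjusted p = 7.71e-05 at 1000 µM after 24 h (limma), and 0.44 ± 0.05, adjusted p = 7.09e-08 and 0.46 ± 0.05, adjusted p = 4.25e-08 after 48 h (limma).

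**Figure D2:**
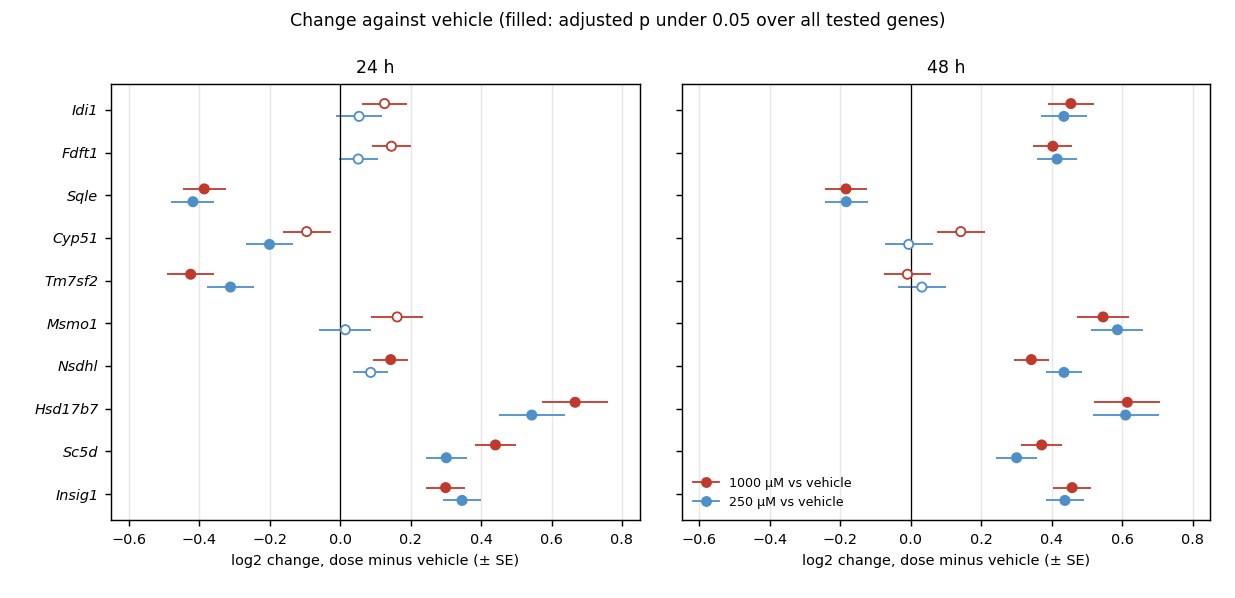
Log2 change of each gene against vehicle (points, with standard errors from limma), for 1000 µM above 250 µM in each row, at 24 h (left) and 48 h (right). Filled points have an adjusted p under 0.05 over all tested genes. At 48 h 7 genes are filled and higher at each dose, and Sqle is the gene on the lower side at both times.

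The difference between the times in the effect of each dose was tested directly as an interaction. At 250 µM 5 genes had a larger change at 48 h than at 24 h and 0 had a smaller one, beside 8.36% of all genes called, 3.84% higher and 4.52% lower. These were Msmo1 (0.57 ± 0.10, adjusted p = 0.000855), Idi1 (0.38 ± 0.09, adjusted p = 0.00883), Fdft1 (0.36 ± 0.08, adjusted p = 0.00379), Nsdhl (0.35 ± 0.07, adjusted p = 0.00229) and Tm7sf2 (0.34 ± 0.10, adjusted p = 0.0223), all from limma. For Tm7sf2 this is a fall against vehicle at 24 h with no call at 48 h, and for the other 4 it is a rise at 48 h with no call at 24 h. At 1000 µM 1 gene was called, Tm7sf2 (0.41 ± 0.10, adjusted p = 0.0248, limma), beside 0.969% of all genes, 0.522% higher and 0.446% lower. The next in size there were Msmo1 (0.38 ± 0.10, adjusted p = 0.0704) and Idi1 (0.33 ± 0.09, adjusted p = 0.0808), which were not called (limma). The interactions of Hsd17b7 were 0.07 ± 0.13 and -0.05 ± 0.13 at 250 and 1000 µM, with 95% intervals of -0.20 to 0.33 and -0.32 to 0.22. Those of Sc5d were -0.00 ± 0.08 and -0.07 ± 0.08, with intervals of -0.17 to 0.17 and -0.24 to 0.10. These hold for the probe set used, and another Sc5d probe set had a called interaction at 250 µM, given below.

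Other processing and single arrays moved the interaction calls. With array medians centred, 1 gene was called at 250 µM (Msmo1) and 0 at 1000 µM, beside 1.42% and 0.152% of all genes. The count at 1000 µM was 0 to 3 when arrays were left out in turn. Tm7sf2 lost its call without replicate 2 of 24 h vehicle (adjusted p = 0.0528), replicate 3 of 48 h vehicle (0.0599), replicate 3 of 1000 µM at 48 h (0.0611) or replicate 5 of 1000 µM at 24 h (0.0524). Without replicate 4 of 48 h vehicle Msmo1 (0.45, adjusted p = 0.0088) and Idi1 (0.39, adjusted p = 0.00706) were called as well, and without replicate 2 of 1000 µM at 24 h Idi1 was called (0.37, adjusted p = 0.0479). At 250 µM the count was 4 to 6. Tm7sf2 was not called without replicate 3 of 48 h vehicle (adjusted p = 0.0526), and Sqle was called without replicate 1 of 24 h vehicle (0.28, adjusted p = 0.0271). All these values are from limma.

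Between 1000 and 250 µM 0 of the 10 genes were called by limma at 24 h and 0 at 48 h, where 0.019% and 0.0665% of all genes were called. At an unadjusted p under 0.05 there was 1 gene at each time, Sc5d at 24 h (0.14 ± 0.06, 1000 minus 250 µM) and Cyp51 at 48 h (0.15 ± 0.07). The 95% intervals of the 10 differences allow at most 0.31 higher (Hsd17b7) and -0.25 lower (Tm7sf2) at 24 h. At 48 h they reach 0.29 (Cyp51) and -0.19 (Nsdhl). A difference between doses as large as the Msmo1 or Hsd17b7 rises against vehicle at 48 h lies outside all of these intervals. The counts and intervals hold for the probe set used for each gene. Of the other probe sets, the largest difference was 0.21 ± 0.09 (Fdft1) at 24 h and 0.31 ± 0.09 (Cyp51) at 48 h. Neither was called by limma.

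Culture time in vehicle, without dioctyl phthalate, was compared as well. From 24 to 48 h 6 of the 10 rose (Fdft1, Sqle, Cyp51, Hsd17b7, Sc5d and Insig1) and 1 fell (Tm7sf2), beside 28.1% of all genes called, 16.4% higher and 11.7% lower. The median change of the 10 was 0.30, against 0.02 over all genes. Ranges were separate for 5 of the risers and for Tm7sf2, beside 6.19% of all genes higher and 4.4% lower without overlap. Cyp51 rose most (0.52 ± 0.07, adjusted p = 1.4e-06), followed by Sqle (0.49 ± 0.06, adjusted p = 4.87e-07) and Hsd17b7 (0.47 ± 0.09, adjusted p = 0.000293), by limma. Sqle signals were 11585, 11653, 9907, 11350.0 and 12288 at 48 h and 7157, 8369, 8272, 8537 and 8028 at 24 h. Cyp51 signals were 11011, 11522, 10969, 10280.2 and 11173 at 48 h and 8554, 8021, 6429, 7687 and 7884 at 24 h. Every 48 h array of these enzymes lay above every 24 h array. Sc5d (0.41 ± 0.06, adjusted p = 4.84e-06), Insig1 (0.38 ± 0.05, adjusted p = 4.19e-06) and Fdft1 (0.22 ± 0.06, adjusted p = 0.00329) also rose (limma). For Hsd17b7 and Sc5d the rise over time was not called in another probe set of the gene, given below.

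Tm7sf2 went the other way with time. Its vehicle signals were 4194, 4996, 3936, 4359 and 4273 at 48 h and 6076, 6547, 6487, 5732 and 5829 at 24 h, ranges that did not overlap (-0.50 ± 0.07, adjusted p = 1.96e-06, limma). The 48 h vehicle arrays lay within the range of the treated arrays at 24 h, which was 3837 to 5245. Idi1, Msmo1 and Nsdhl, all among the genes that rose with either dose at 48 h, were not called over time in vehicle, with changes of 0.17 ± 0.06, adjusted p = 0.0512, 0.19 ± 0.07, adjusted p = 0.0569 and 0.09 ± 0.05, adjusted p = 0.175 (limma). Idi1 was called without replicate 1 or 3 of 48 h vehicle or replicate 2 or 4 of 24 h vehicle (0.18 to 0.21, limma adjusted p = 0.0167 to 0.0488). Msmo1 was called without replicate 3 or 5 of 48 h vehicle or replicate 1 or 4 of 24 h vehicle (0.21 to 0.22, limma adjusted p = 0.0327 to 0.0495). Leaving out 1 array at a time gave 7 to 9 called genes. With array medians centred Idi1 and Msmo1 were called, and with quantile normalization Nsdhl as well, beside 20.5% and 27.6% of all genes.

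**Figure D3:**
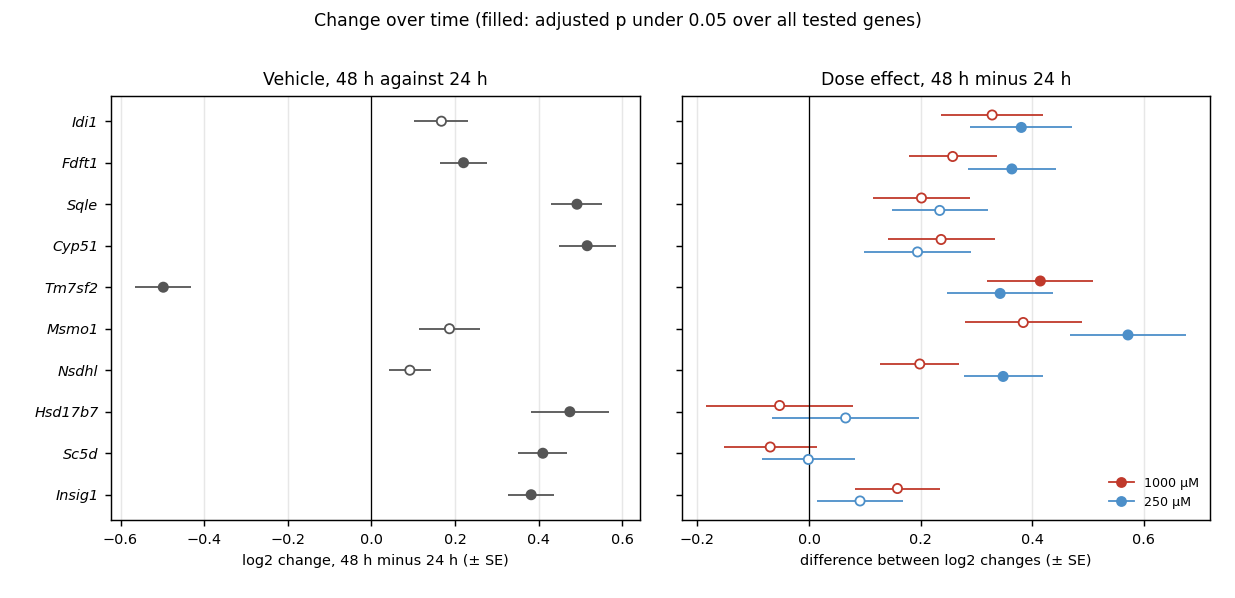
Left, log2 change of each gene in vehicle, 48 h minus 24 h; right, difference between the 48 h and the 24 h effect of each dose, with 1000 µM above 250 µM in each row. Bars are standard errors from limma and filled points have an adjusted p under 0.05 over all tested genes. Tm7sf2 is the gene that is lower with time in vehicle, and Msmo1 has the largest difference between times at 250 µM (0.57).

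Comparisons with 48 h vehicle were repeated with its replicate 4 alone, the array with a low actin ratio. Then 5 genes rose at each dose (Fdft1, Nsdhl, Hsd17b7, Sc5d and Insig1) and 0 fell, beside 13.1% of all genes called at 250 µM and 11.2% at 1000 µM. Fdft1 kept changes of 0.40 at 250 µM and 0.39 at 1000 µM (limma adjusted p = 0.00393 and 0.00565). Idi1 had 0.19 and 0.21 (limma adjusted p = 0.221 and 0.177) and Msmo1 0.33 and 0.29 (limma adjusted p = 0.0667 and 0.132), so neither was called. With each of the other 4 vehicle arrays as the sole one, Idi1 changed by 0.33 to 0.62 at 250 µM and 0.35 to 0.64 at 1000 µM. Msmo1 changed by 0.54 to 0.70 and 0.50 to 0.66 at the same doses. Fdft1, with 0.29 to 0.48 and 0.28 to 0.47, had its replicate 4 values inside these ranges. For time in vehicle replicate 4 alone gave changes of 0.42 for Idi1, 0.49 for Sqle and -0.49 for Tm7sf2. The other arrays, each as the sole one, gave -0.02 to 0.27, 0.30 to 0.61 and -0.64 to -0.29 for these genes. Replicate 4 also gave 0.42 for Cyp51, 0.29 for Hsd17b7, 0.35 for Sc5d and 0.28 for Insig1. These lay below the other arrays, with 0.51 to 0.58, 0.41 to 0.59, 0.37 to 0.52 and 0.37 to 0.49. Msmo1 (0.44) and Nsdhl (0.17) lay above the others, with 0.07 to 0.23 and -0.02 to 0.16. Fdft1 (0.23) lay inside 0.16 to 0.34. With replicate 4 alone the Msmo1 interaction was 0.32 at 250 µM and 0.13 at 1000 µM. The other arrays gave 0.53 to 0.69 and 0.34 to 0.50. The Tm7sf2 interaction was 0.34 and 0.41 with replicate 4 alone, inside the 0.14 to 0.48 and 0.21 to 0.55 of the other arrays. A lone array also removes 4 replicates, and it is assumed to vary like the other groups.

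With the actin ratio as a covariate over all 30 arrays, 7 genes rose at each dose at 48 h and 0 fell, since Sqle lost its call (-0.15 at 250 µM and -0.16 at 1000 µM). Of all genes 26.4% were then called at 250 µM and 22% at 1000 µM. The fit of the ratio rests mostly on the 5 arrays of 48 h vehicle, where the ratio spread most. Its SD there was 0.494, against 0.0783 to 0.157 in the other groups. Idi1 changed by 0.29 at 250 µM and 0.35 at 1000 µM (limma adjusted p = 0.00238 and 0.000126) and Msmo1 by 0.43 at either dose (limma adjusted p = 0.000177 and 5.55e-05). Time in vehicle then called 7 genes, with Idi1 (0.31, limma adjusted p = 0.00671) and Msmo1 (0.34, limma adjusted p = 0.0106) among them and without Fdft1 and Hsd17b7, beside 7.11% of all genes, against 28.1% without the covariate.

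**Figure D4:**
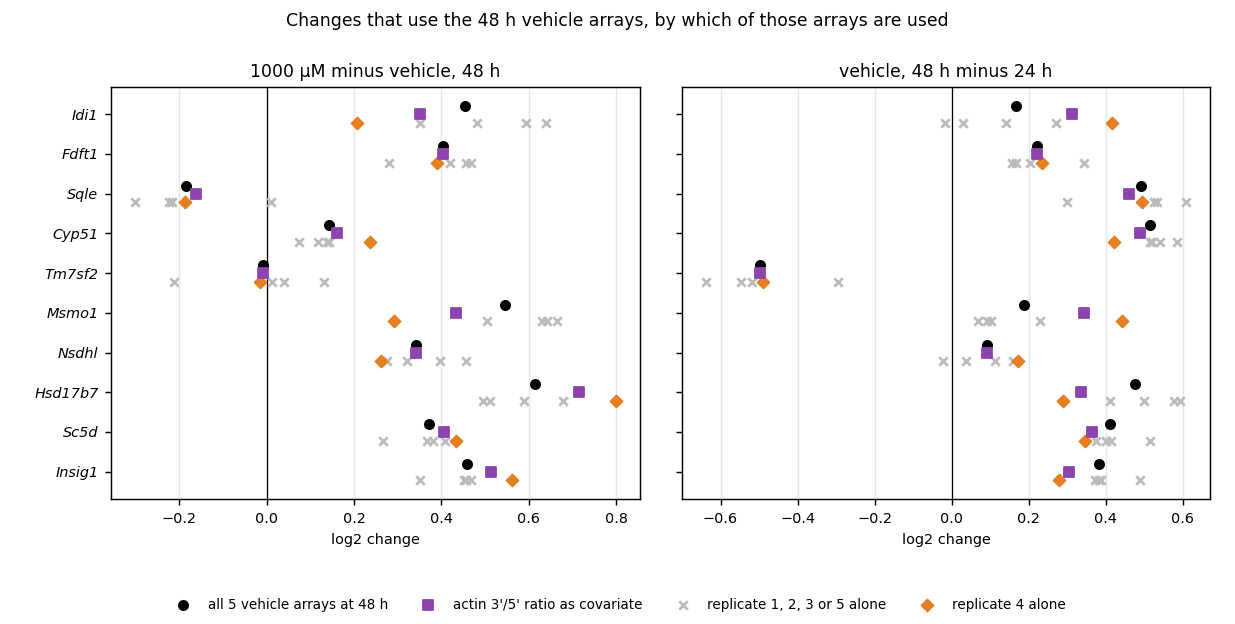
Log2 change of each gene at 1000 µM against vehicle at 48 h (left) and in vehicle at 48 h against 24 h (right), with all 5 of the 48 h vehicle arrays, with the actin ratio as a covariate, and with each vehicle array as the sole one. With replicate 4 alone Idi1 and Msmo1 have their own smallest dose effect (0.21 and 0.29) and Hsd17b7 its own largest (0.80).

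Of the 10 genes, 6 had more than 1 probe set, and each was read by the one with the highest mean. The second Idi1 probe set rose at 48 h by 0.46 at either dose, and the second Hsd17b7 probe set rose in all 4 comparisons with vehicle, by 0.33 to 0.47 (limma over all tested probe sets, of which 39% and 27.4% were called at 48 h, and 17.1% and 17.4% at 24 h, at 250 and 1000 µM). For time in vehicle 27.9% of probe sets were called, and for the interactions 7.53% at 250 µM and 0.659% at 1000 µM. The second Hsd17b7 probe set was not called over time in vehicle (0.12, limma adjusted p = 0.331). The remaining 2 Sc5d probe sets, 1387926_at and 1389111_at, rose in all 4 comparisons with vehicle, by 0.29 to 0.65. Over time in vehicle 1387926_at was not called (0.03, limma adjusted p = 0.836) and 1389111_at rose (0.28, limma adjusted p = 0.0114). At 250 µM the interaction of 1387926_at was 0.35 and called (limma adjusted p = 0.0395). That of 1389111_at was 0.31 and not called (limma adjusted p = 0.11). At 1000 µM their interactions of 0.27 and 0.16 were not called. Fdft1 was higher in its second probe set at 1000 µM already at 24 h (0.32, limma adjusted p = 0.00946), and its 250 µM interaction there was 0.17 and not called. The second Nsdhl probe set was higher at 1000 µM at 24 h (0.38, limma adjusted p = 0.000825) and in vehicle over time (0.75, limma adjusted p = 6.47e-08), and its interactions of 0.14 at 250 µM and 0.06 at 1000 µM were not called. The second Cyp51 probe set, which is not of the shared type, was lower at 250 µM at 48 h (-0.26, limma adjusted p = 0.0203), was not called at 24 h, and rose over time in vehicle (0.67). The second Idi1 probe set had a 250 µM interaction of 0.41, which was not called (limma adjusted p = 0.0944). The late timing of Fdft1 and Nsdhl, and the interaction call of Idi1, rest on the brighter probe set of each.

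Of 14 further enzymes of the pathway 11 were tested, and the others were not analysed here. At 24 h 3 of 11 fell at 250 µM, Ebp (-0.33 ± 0.07, adjusted p = 0.000559), Pmvk (-0.28 ± 0.06, adjusted p = 0.00136) and Erg28 (-0.26 ± 0.06, adjusted p = 0.00286), and 1 fell at 1000 µM, Pmvk (-0.26 ± 0.06, adjusted p = 0.00311), with 0 higher (limma), beside 11% and 11.2% of all genes lower. At 48 h 2 rose at each dose and 0 fell: Fdps at both (0.21 ± 0.06 and 0.15 ± 0.06), Erg28 at 250 µM (0.21 ± 0.06) and Dhcr7 at 1000 µM (0.23 ± 0.07), beside 15.2% of all genes higher at 250 µM and 11.5% at 1000 µM. Their median change was -0.12 and -0.04 at 24 h and 0.03 and 0.04 at 48 h, at 250 and 1000 µM. Pmvk is phosphomevalonate kinase, Fdps makes farnesyl diphosphate, Ebp is a sterol isomerase, Erg28 a scaffold known from yeast to hold the C4 demethylation enzymes together, and Dhcr7 the last reductase on the lathosterol route. With array medians centred none of the 48 h calls remained, and at 24 h 0 were called at 1000 µM.

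Over time in vehicle 6 of these 11 enzymes rose and 0 fell, with a median of 0.22, beside 16.4% of all genes higher and 11.7% lower. Those with the smallest p were Acat2 (0.55 ± 0.07, adjusted p = 6.9e-07), the thiolase at the head of the pathway, Dhcr7 (0.50 ± 0.07, adjusted p = 2.24e-06), Lss (0.62 ± 0.10, adjusted p = 1.51e-05), which closes the rings to lanosterol, and Fdps (0.22 ± 0.06, adjusted p = 0.00524), by limma. With the actin ratio as a covariate 3 were called, beside 7.11% of all genes, and with vehicle replicate 4 alone 1 was, beside 1.39%.

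Of 10 genes of sterol sensing and SREBP processing 9 were tested. Insig2, the second INSIG protein, had the largest change of the list at 48 h. Its signals were 11812 to 18469 in vehicle, 25504 to 32345 at 250 µM and 21918 to 26210 at 1000 µM, without overlap. It rose by 1.10 ± 0.10, adjusted p = 5.08e-11 at 250 µM and 0.80 ± 0.10, adjusted p = 6.9e-08 at 1000 µM, and fell over time in vehicle (-0.72 ± 0.10, adjusted p = 2.19e-06, limma). At 24 h its change was 0.26 ± 0.10, adjusted p = 0.0547 and 0.24 ± 0.10, adjusted p = 0.0837 (limma). Its interaction was 0.84 ± 0.14, adjusted p = 0.00022 at 250 µM and 0.56 ± 0.14, adjusted p = 0.0387 at 1000 µM (limma). Against vehicle replicate 4 alone its 48 h change was 0.68 at 250 µM (limma adjusted p = 0.000624) and 0.38 at 1000 µM (limma adjusted p = 0.0724).

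Srebf2, which encodes SREBP2, was lower at 48 h, with changes of -0.47 ± 0.09, adjusted p = 8.64e-05 at 250 µM and -0.26 ± 0.09, adjusted p = 0.0285 at 1000 µM, and rose over time in vehicle (0.50 ± 0.09, adjusted p = 0.000139, limma). Its 48 h signals were 2653 to 3960 in vehicle, 2368 to 2734 at 250 µM and 2361 to 3165 at 1000 µM, and the ranges overlapped. Scap, the escort of SREBP2, was lower as well, with changes of -0.60 ± 0.15 and -0.56 ± 0.15 at the same doses and higher over time in vehicle (0.69 ± 0.15). Against vehicle replicate 4 alone Srebf2 had changes of -0.08 and 0.13 and Scap -0.29 and -0.25, with no call for either gene, and for time in vehicle the changes were 0.11 and 0.38, also without a call. Marchf6, a ubiquitin ligase that degrades squalene epoxidase, rose in all 4 comparisons with vehicle, by 0.54 ± 0.07 and 0.44 ± 0.07 at 24 h and 0.39 ± 0.07 and 0.40 ± 0.07 at 48 h, at 250 and 1000 µM. It was also called at 48 h against replicate 4 alone (0.70 at either dose). Of the 9 tested genes of this list, 4 rose and 4 fell at 250 µM and 48 h, beside 15.2% of all genes higher and 26% lower. At 1000 µM and 48 h 3 rose and 2 fell, beside 11.5% higher and 18.3% lower. At each dose at 24 h 1 rose and 0 fell. The shares of all genes there were 8.31% higher and 11% lower at 250 µM, and 8.28% and 11.2% at 1000 µM.

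Among genes of sterol uptake and export, 2 of 6 uptake and transport genes were tested (Stard4 and Npc2). Stard4, a sterol carrier, rose at 250 µM and 48 h (0.30 ± 0.09, adjusted p = 0.00739, limma), a call that was lost against replicate 4 alone (0.05). Of 7 genes of export, LXR and esterification 4 were tested. Abca1, which loads cholesterol onto lipid-poor apolipoprotein A-I, fell in all 4 comparisons, with changes of -0.82 ± 0.11 and -0.73 ± 0.11 at 24 h and -0.83 ± 0.11 and -0.77 ± 0.11 at 48 h, at 250 and 1000 µM. Its signals at 24 h were 3333 to 4293 in vehicle, 1819 to 2351 at 250 µM and 1894 to 2661 at 1000 µM. Abcg1, which exports cholesterol to formed lipoproteins, rose in the same comparisons, by 0.71 ± 0.12, 0.47 ± 0.12, 0.56 ± 0.12 and 0.55 ± 0.12 in the same order. Against replicate 4 alone Abca1 had -0.51 at 250 µM (limma adjusted p = 0.049) and -0.45 at 1000 µM (limma adjusted p = 0.103), and Abcg1 was called at both doses. Both genes are known LXR targets.

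**Figure D5:**
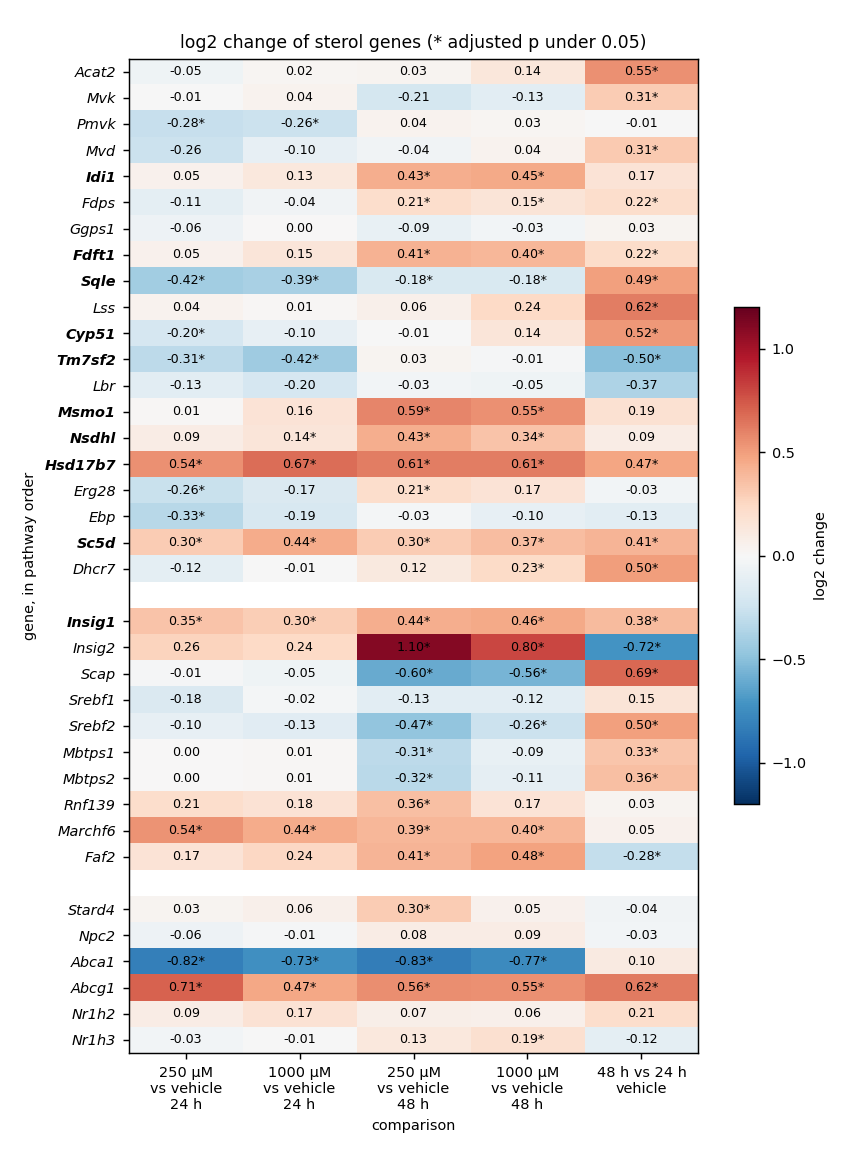
Log2 change of the 10 genes (bold) and of the other tested sterol genes, in pathway order, for each dose against vehicle at each time and for time in vehicle, with an asterisk at an adjusted p under 0.05. The 48 h columns show 7 of the 10 genes called higher at both doses and, of the 11 other enzymes, 1 (Fdps), and the time column shows Lss (0.62), Acat2 (0.55) and Cyp51 (0.52) among the highest enzymes.

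Pairs among the 10 genes were correlated over the 30 arrays, as a description in which all points share the 6 groups and the arrays. Pearson's r of log2 signals ranged from -0.79 (Tm7sf2 and Sc5d) to 0.96 (Idi1 and Msmo1) over the 45 pairs, with a median of 0.77. All 9 negative pairs held Tm7sf2. With the group means taken out the range was -0.38 to 0.68 and the median 0.16, so most of the likeness was between groups. Idi1 and Msmo1 had the highest value there too (0.68). For each gene the 3 tested genes most like it were named, and 5 of these 30 were members of the 10. Idi1 and Msmo1 were most like each other, and Fdft1 was most like Msmo1 (0.95). Csad, cysteine sulfinic acid decarboxylase, was among the 3 of each of these genes. Csad was also among the 3 of Nsdhl and Insig1. Cyp51 was most like Dhcr7 (0.94), Acat2 and Scd2, and Sqle most like Ubd (0.92), Glyatl2 and Acly. Hsd17b7 was most like Nudt12 (0.94), Acad11 and Reep3, Sc5d like Abhd6 (0.95), Pcyox1 and Mpp7, and Nsdhl like Bphl (0.96) besides Csad and Pdzph1. Insig1 was most like Psat1 (0.96) and Ces1d, Fads1 was among the 3 of Fdft1, and Tm7sf2 had the lowest values, with Pim3 (0.83), Cebpa and Stmp1.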

How the data were processed

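Biotin-labelled RNA from 30 wells was hybridised to 30 arrays, 1 per well. The authors deposited 1 intensity signal per probe set and array on a linear scale, made with MAS5 per the submitters' processing notes, and the sources used here state neither its version nor its settings. A trimmed mean, with 2% removed from both ends, lay between 1500.6 and 1500.7 on all arrays, so the deposited signals carry a common scaling, and no further scaling was applied. From the deposited signals log2(signal + 1) was computed. Of 31099 probe sets, 57 controls and the 40% with the lowest mean log2 signal were left out, a limit of 7.88 (signal 234). Probe sets with 1 gene symbol in the platform table were kept, and the one with the highest mean stood for a gene, which left 10528 genes.

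A linear model with a mean for every group was fitted in limma 3.58.1 (R 4.3.3), with 24 residual degrees of freedom, a mean-variance trend and Benjamini-Hochberg adjustment over the 10528 genes, in 9 comparisons. The procedure was tested on simulated data. Named genes are the 10 genes with all their probe sets, up to 4 called genes of smallest p in each of 4 lists (other synthesis enzymes, sterol sensing, uptake and transport, export), a few further sterol genes, of which Srebf2 and Insig2 are reported here, and the 3 genes most correlated with each of the 10. Members and lists were chosen with earlier results of these data known, so no test over a list was made. Alternatives were a pseudocount of 16, centred medians, quantile normalization, no filter or a 20% filter, averaged or separate probe sets, no trend, only the groups compared, the actin ratio as a covariate, single 48 h vehicle arrays and leaving out each array. The running-number sets as a block and the alternatives for the lists were chosen after seeing the data. Array measurements are limited in precision by the number of arrays and by signal over background.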

Additional observations from a re-analysis of the deposited data

Results flagged for a closer look

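A sample far from the others of its group was looked for in 60 groups of 5 arrays (10 genes in 6 groups) with Dixon's test at its 95% critical value of 0.71, where chance gives about 1 in 20, and 2 were found. Tm7sf2 on replicate 5 of 250 µM at 48 h had a log2 signal of 12.02 (signal 4147), against signals of 4439 to 4558 on the other 4 arrays. Msmo1 on replicate 5 of 250 µM at 24 h had 13.95 (signal 15771), against 12726 to 13506 on the others.

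The effect of a dose against vehicle differed between 48 and 24 h by the interaction test of limma for 6 pairs of gene and dose. These were Tm7sf2 at 1000 µM (0.41), and at 250 µM Msmo1 (0.57), Idi1 (0.38), Fdft1 (0.36), Nsdhl (0.35) and Tm7sf2 (0.34). The part of the raised actin ratio of 48 h vehicle in these differences was not tested apart from the alternatives given.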

How the results depend on the processing

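No call for any of the 10 genes reversed. Of 1040 gene and comparison results under the alternatives, 983 stayed on their side of the threshold in the same direction, 43 lost a call and 14 gained one. Of 1100 with 1 array left out, 1061 stayed, 25 lost and 14 gained a call. Leaving out 1 array gave 5 to 6 called genes for each dose at 24 h, 7 to 8 for each dose at 48 h, 0 between doses, 7 to 9 over time in vehicle, 0 to 3 for the 1000 µM interaction and 4 to 6 for the 250 µM interaction. With 48 h vehicle replicate 4 alone the 250 µM interactions were 0.32 (Msmo1), 0.13 (Idi1), 0.35 (Fdft1), 0.27 (Nsdhl) and 0.34 (Tm7sf2). Other changes with that array alone are given above. The 1000 µM interaction had 0 calls with centred medians and 0 with only the groups compared in the fit (0.152% and 0.342% of all genes called), against 1 (0.969%). The 250 µM interaction had 1 call with centred medians and 3 when the actin ratio was a term of the fit (1.42% and 2.36% of all genes), against 5 (8.36%). The cause was not tested, except that a lone vehicle array leaves fewer samples. Leaving aside the lone vehicle array, the calls lost under more than 1 alternative were Nsdhl at 1000 µM and Cyp51 at 250 µM at 24 h, Sqle at 48 h, the 1000 µM interaction of Tm7sf2, and the 250 µM interactions of Idi1, Fdft1 and Tm7sf2. Calls gained under more than 1 alternative were those of Idi1, Msmo1 and Nsdhl over time in vehicle. That comparison called 9 of the 10 genes with centred medians and 10 with quantile normalization, beside 20.5% and 27.6% of all genes. The labels give no replicate numbers, but their running numbers fall into 5 consecutive sets that each hold 1 array of every group. Deviations from the group means correlated over 0.1 for 19 of 75 same-set pairs of arrays (median 0.04) and 27 of 300 other pairs (median -0.01). Of 30 arrays, 15 were closest to their own of the 5 sets. By these values arrays of a set were somewhat more alike than other arrays. The labels do not say what the sets stand for, and the main fit holds no term for them. With the set as a replicate block, an alternative chosen after seeing the data, the 1000 µM interaction had 3 calls (Tm7sf2, Msmo1 and Idi1, beside 1.18% of all genes), time in vehicle 9, and the other comparisons as many as without it. Signals of all 10 genes lay above the low-signal limit.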
